A study of Mus musculus with 9 samples.

Results

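The 39 mouse Hox genes, taken as every gene whose symbol is Hoxa, Hoxb, Hoxc or Hoxd followed by a number from 1 to 13, were followed in 9 RNAseq libraries of primary stromal vascular fraction (SVF) cells. They were 39 of 32285 genes counted. The cells came from subcutaneous white adipose tissue of neonatal WT mice aged 4 to 6 days and were a mixed population that had not been sorted. Each group held 3 libraries. Undifferentiated cells received no induction, and the sources used here give no harvest day for them. Vehicle-treated and MIZ-treated cells both received insulin, dexamethasone and IBMX for 2 days, then insulin, troglitazone, rosiglitazone and triiodothyronine, and both were harvested at day 6. The vehicle was DMSO. MIZ is mizoribine, here at 25 µM, an inhibitor of inosine monophosphate dehydrogenase, which commits purine synthesis to guanine nucleotides. All labels read "Primary adipocytes". In the undifferentiated libraries, however, 5 adipocyte markers summed to 5.06 to 5.26 CPM, against 12534 to 13252 CPM with vehicle. Cidec had 0 counts in all 3 undifferentiated libraries. The labels do not tie libraries to animals, so p-values measure the spread between libraries.

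Hox genes encode homeodomain transcription factors that give cells their address along the body. They lie in 4 clusters, in which gene order follows body order, from low-numbered genes used towards the head (anterior) to high-numbered genes used towards the tail (posterior), and the level of the body is read from the combination that a cell keeps. Fibroblasts and preadipocytes carry their Hox combination from the depot of origin into culture, and subcutaneous fat of the trunk and flank is known for its Hoxc genes.

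Transcripts of most Hox genes were found, while the most posterior genes of Hoxa, Hoxb and Hoxd stayed at or near 0 counts in all 3 groups. Of the 39 genes, 31 had enough counts to be tested, namely 10 of 11 Hoxa, 8 of 10 Hoxb, all 9 Hoxc and 4 of 9 Hoxd genes, and 29 of these reached a mean of 1 CPM in a group, a count scaled to library size. Hoxa2 and Hoxc12 were tested but stayed under that level. The 8 genes left out were Hoxa13, Hoxb1, Hoxb13, Hoxd1 and Hoxd10 to Hoxd13. None of them had more than 9 counts in a library, a maximum set by Hoxd1 in undifferentiated cells, and Hoxd12 had 0 counts in all 9 libraries. A count of 0 allows levels up to 0.0512 to 0.113 CPM, depending on the library, so absence below that could not be shown. Transcripts therefore reached Hoxa11, Hoxb9 and Hoxd9 in 3 clusters and Hoxc13, the gene known for hair and nail formation, in the fourth.

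Per kilobase of exon, the scale on which genes can be compared, the leading genes were paralogs 6 to 10. In undifferentiated cells the highest mean level was that of Hoxc6 with 22.4 ± 1.05 CPM per kilobase (SD, n = 3), followed by Hoxc10 with 17.3 ± 0.523, Hoxb9 with 16.3 ± 0.265 and Hoxc8 with 12.6 ± 0.208. The ranges of these 4 genes over libraries did not overlap. In vehicle-treated cells the order was Hoxc10 with 11.8 ± 1.34 CPM per kilobase, Hoxc8 with 7.34 ± 0.487, Hoxc6 with 6.78 ± 0.882 and Hoxd8 with 6.00 ± 0.447, and Hoxc8 and Hoxc6 differed by less than their spread. In MIZ-treated cells Hoxc6 led again with 16.9 ± 0.178 CPM per kilobase, ahead of Hoxb9 with 12.0 ± 0.534 and Hoxc8 with 10.1 ± 0.446. Hoxb9, placed 3 in undifferentiated and 2 in MIZ-treated cells, was placed 16 in vehicle-treated cells. Ranked over the 31 genes, levels of libraries of the same group correlated with a Spearman coefficient of 0.979 to 0.997. The coefficient was 0.887 to 0.917 between MIZ-treated and undifferentiated libraries, 0.701 to 0.746 between vehicle-treated and undifferentiated libraries and 0.625 to 0.693 between MIZ-treated and vehicle-treated libraries. These correlations are across genes of the same libraries and are descriptions only.

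**Figure D1:**
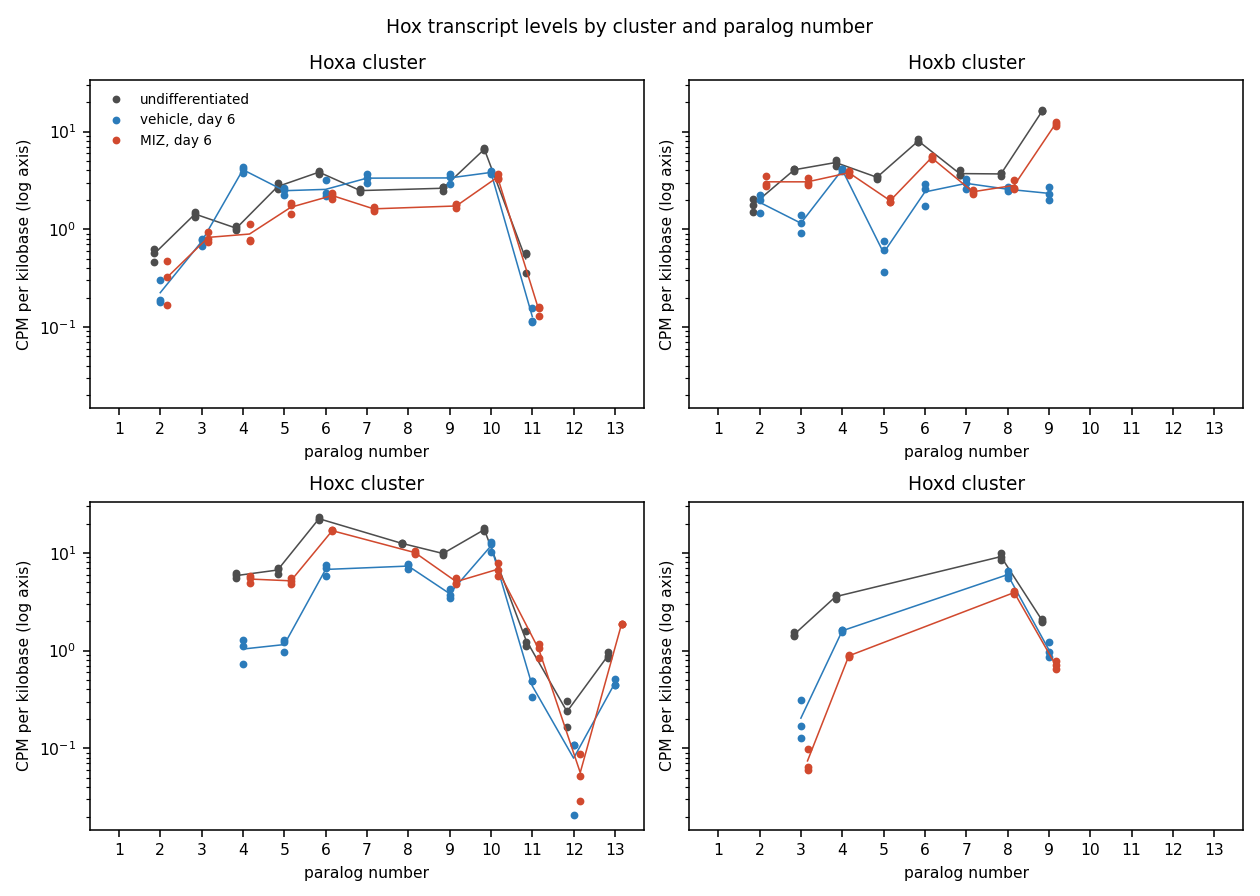
Level of 30 tested Hox genes in CPM per kilobase (log axis) against its paralog number, by cluster. Points are the 9 libraries and lines join the means of undifferentiated (grey), vehicle-treated (blue) and MIZ-treated (red) cells. Hoxb9 and Hoxc4 to Hoxc6 dip in vehicle-treated cells, Hoxa4 stands above the other groups there, and the 4 Hoxd genes are lowest in MIZ-treated cells.

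Hox genes took a small share of all counts, and that share differed between groups. Undifferentiated libraries had 0.0431% to 0.0449% of their counts in Hox genes, those with vehicle 0.0176% to 0.0207% and those with MIZ 0.0282% to 0.0289%. The 3 ranges did not overlap. Library totals ran from 28760721 to 55288455 counts and Hox totals from 5069 to 24826 counts, with both minima in vehicle replicate 1. In bulk RNA, fewer cells that carry a gene and less RNA of it per cell cannot be told apart.

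Markers of several cell types moved with the groups. The 5 adipocyte markers summed to 5.06 to 5.26 CPM in undifferentiated libraries, to 12534 to 13252 CPM with vehicle and to 845 to 1067 CPM with MIZ. Lep had at most 4 counts in any library, and in undifferentiated cells Cidec and Lep were at 0 counts and nearly all of the sum was Fabp4. The 6 preadipocyte and fibroblast markers summed, in the same order, to 14046 to 15282, 3244 to 4062 and 5405 to 7159 CPM. For 5 immune markers the sum was 3431 to 3539, 399 to 744 and 846 to 1171 CPM, and for 5 pericyte and smooth muscle markers 404 to 438, 157 to 166 and 654 to 734 CPM. The 5 endothelial markers summed to 27.2 to 29.6, 5.36 to 7.28 and 2.57 to 4.03 CPM, and 4 Schwann and nerve markers to 16.6 to 20.8, 13.0 to 14.7 and 24.5 to 37.6 CPM. Of 4 mesothelial markers the sum was at most 1.52 CPM, of 4 epithelial markers at most 0.263 CPM, and the 4 markers of skeletal muscle cells, Myod1, Myf5, Pax7 and Myog, had at most 3 counts in each library. Not every marker moved with its sum (edgeR, adjusted p under 0.05). For vehicle against undifferentiated cells, 2 pericyte and smooth muscle markers were higher and 3 lower. For MIZ against vehicle, 3 of these were higher and 1 lower, as were 3 and 1 of the preadipocyte and fibroblast markers. Of the immune markers, 2 were higher and 0 lower there, though their median on the log2 scale was -0.13. Against undifferentiated cells, 1 immune marker was higher and 4 lower with MIZ. Of all genes, 36.2% were higher and 41.5% lower in vehicle-treated than in undifferentiated cells. These shares were 35.9% and 35.1% for MIZ against vehicle, and 33.7% and 33.3% for MIZ against undifferentiated cells. The part of these cell types in the Hox results was not tested.

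The clusters did not move together. The summed level of Hoxb was 118 ± 1.99 CPM in undifferentiated cells, 45.6 ± 4.87 in vehicle-treated and 91.5 ± 3.95 in MIZ-treated cells (SD, n = 3). Hoxc took a similar course, with 187 ± 3.91, 77.3 ± 8.40 and 131 ± 3.97 CPM. Hoxa stood at 66.1 ± 2.22, 61.8 ± 3.93 and 40.5 ± 0.573 CPM, and Hoxd at 46.4 ± 1.83, 24.3 ± 1.57 and 15.3 ± 0.565 CPM. So Hoxb and Hoxc were lowest in vehicle-treated cells, whereas Hoxa and Hoxd were lowest in MIZ-treated cells. Each of these pairs of groups was fully separated, with a two-sided exact permutation p of 0.1, the smallest that 3 against 3 libraries can give, except Hoxa in vehicle-treated against undifferentiated cells (exact p = 0.2). Leaving out Hoxa10, its most abundant gene in undifferentiated cells, turned that Hoxa log2 ratio from -0.10 to 0.14. As a share of all Hox counts, Hoxa made up 15.8% ± 0.299 in undifferentiated, 29.6% ± 0.594 in vehicle-treated and 14.5% ± 0.3996 in MIZ-treated cells. The share of Hoxd was 11.1% ± 0.419, 11.7% ± 1.34 and 5.50% ± 0.0909, and the first pair of these was not separated (exact p = 0.5). Every other pair of shares, of Hoxb and Hoxc as well, gave the exact p of 0.1. With counts per kilobase, the difference in the Hoxc share between MIZ-treated and undifferentiated cells went from 2.31 to 1.502 percentage points and was no longer separated (exact p = 0.2).

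**Figure D2:**
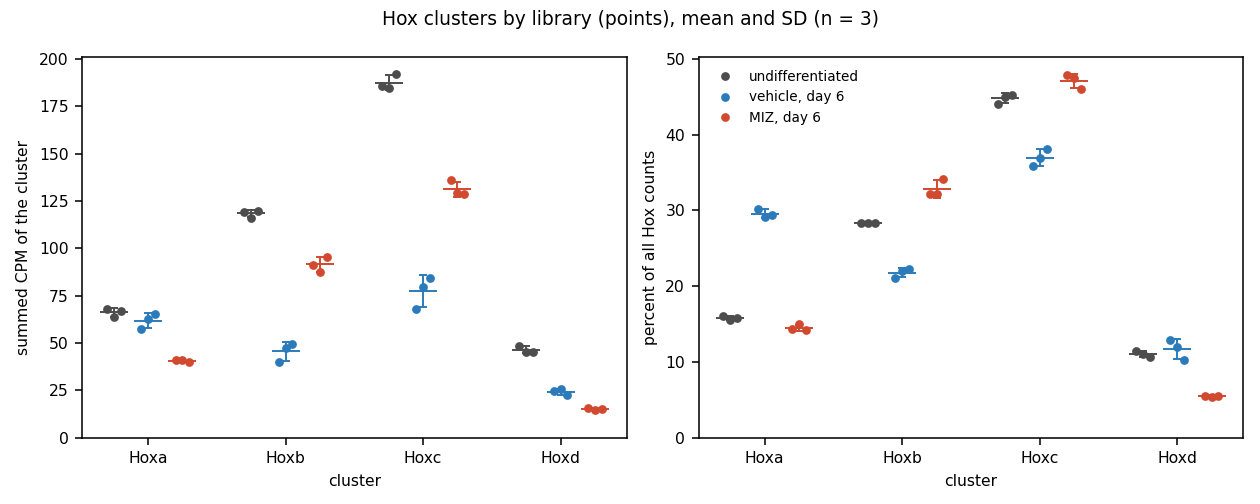
Summed CPM of each Hox cluster (left) and its percent of all Hox counts (right), both axes from 0. Points are libraries, with mean and SD (n = 3) in grey for undifferentiated, blue for vehicle-treated and red for MIZ-treated cells. Hoxb and Hoxc sums are lowest in vehicle-treated cells and Hoxa and Hoxd sums in MIZ-treated cells.

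The first comparison asked how the Hox code differed between vehicle-treated and undifferentiated cells. With no harvest day for the latter, differentiation, its media and time in culture cannot be told apart here. Most Hox genes fell in vehicle-treated against undifferentiated cells. Of 31 tested, 25 were lower and 3 higher (Hoxa4, Hoxa7 and Hoxa9), and the others, among them Hoxa5 and Hoxb2, did not pass the test (edgeR's quasi-likelihood test, where a gene is called at an adjusted p under 0.05 over all genes). Among all 17173 genes tested, 77.7% were called, 41.5% lower and 36.2% higher. The median log2 fold change was -0.94 over the Hox genes and -0.08 over all genes. By cluster it was -0.35 for Hoxa, -1.11 for Hoxb, -1.54 for Hoxc and -1.07 for Hoxd. Changes above 2-fold were 14 falls (24.0% of all genes) and 1 rise, of Hoxa4 (17.2%), where 41.2% of all genes changed by that much. The libraries of both groups did not overlap for 29 of the 31 genes, beside 80.7% of all genes.

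The second comparison asked what MIZ changed in differentiating cells. MIZ-treated cells had Hox genes above and below their level with vehicle. In all, 22 of 31 were called, a share near the background of 71.0% of all genes. The split was 12 higher and 10 lower, beside 35.9% and 35.1% of all genes, and 9 genes did not pass. The direction differed by cluster. In Hoxb 5 of 8 tested genes rose and 1 fell, and in Hoxc 7 of 9 rose and 1 fell, whereas in Hoxa 4 of 10 fell and in Hoxd 4 of 4 fell. Changes above 2-fold were 9 rises (16.2% of all genes) and 3 falls (16.8%), 33.1% in both directions, and the libraries did not overlap for 23 of the 31 genes (72.8%). MIZ-treated cells were also compared with undifferentiated cells, where 27 Hox genes were called, beside 67.0% of all genes. Of these 24 were lower and 3 higher, among them Hoxb2 and Hoxc13, beside 33.3% and 33.7% of all genes. Above 2-fold there were 7 falls (16.5%) and 1 rise (9.88%), 26.4% in both directions, the libraries did not overlap for 27 of the 31 genes (74.4%), with a median of -0.62 on the log2 scale. The 3 comparisons share libraries, so their values stand side by side and are not independent of each other.

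**Figure D3:**
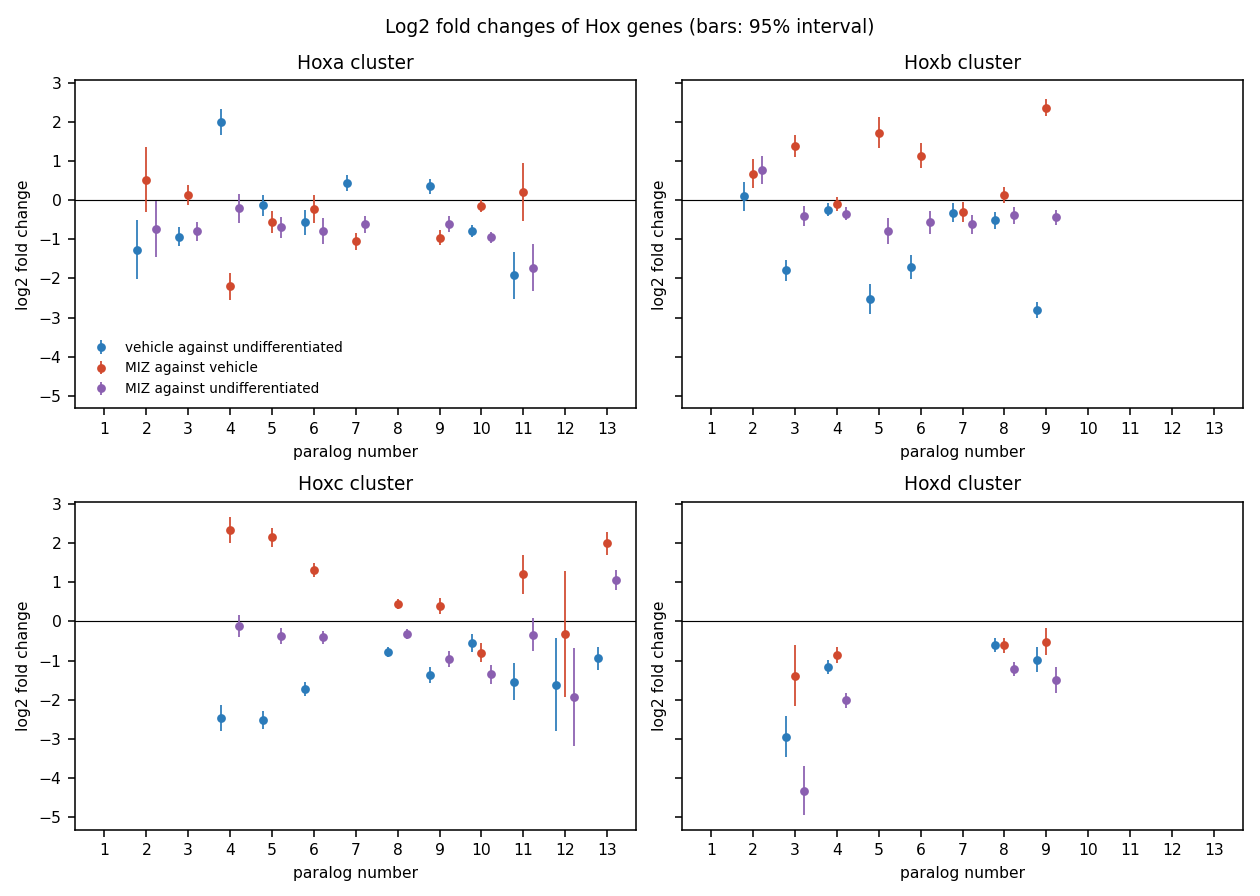
Log2 fold change of 30 tested Hox genes against its paralog number, by cluster, with its 95% interval. Blue is vehicle against undifferentiated, red MIZ against vehicle and purple MIZ against undifferentiated cells. Red points lie above 0 for most Hoxb and Hoxc genes and below 0 for the 4 Hoxd genes.

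The first group of members is the run from Hoxb9 to Hoxb3, genes that pattern the neck and thorax. Hoxb9, which patterns the ribs, had, with Hoxc4, the largest rise between vehicle and MIZ among Hox genes. Its level was 41.8, 41.3 and 42.6 CPM in the undifferentiated libraries, 5.85, 7.02 and 5.12 CPM in the vehicle-treated and 30.7, 29.5 and 32.3 CPM in the MIZ-treated libraries. The 3 groups were far apart, and vehicle-treated cells had the low values. The log2 fold change was -2.80 (SE 0.0955, adjusted p = 4.12e-10) for vehicle against undifferentiated cells and 2.36 (SE 0.0959, adjusted p = 2.50e-09) for MIZ against vehicle, and MIZ-treated cells remained 1.36-fold under undifferentiated cells (adjusted p = 0.000729).

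Hoxb5, a gene of lung and gut development, stood at 9.84, 9.15 and 9.45 CPM undifferentiated, at 1.01, 1.70 and 2.09 CPM with vehicle and at 5.28, 5.29 and 5.82 CPM with MIZ. Hoxb6 stood at 16.3, 15.4 and 15.5 CPM, at 3.41, 5.09 and 5.69 CPM and at 10.7, 10.9 and 10.2 CPM in the same order. Hoxb3, which patterns the hindbrain and neck, stood at 17.4, 16.7 and 17.7 CPM, at 3.90, 4.91 and 5.89 CPM and at 14.2, 12.1 and 12.7 CPM. All 3 genes had their lowest value in vehicle replicate 1, and no group overlapped another. The log2 fold change for MIZ against vehicle was 1.72 (SE 0.179) for Hoxb5, 1.14 (SE 0.140) for Hoxb6 and 1.39 (SE 0.125) for Hoxb3. For vehicle against undifferentiated cells it was -2.51, -1.71 and -1.80. Hoxb2 was unlike its neighbours, with 6.23, 5.24 and 7.10 CPM undifferentiated, 5.10, 6.87 and 7.78 CPM with vehicle and 9.56, 10.1 and 12.4 CPM with MIZ. Its first pair of groups overlapped and its MIZ-treated libraries were highest, 1.60-fold above vehicle (adjusted p = 0.00345).

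Between these genes sat members of the same cluster that differed little between MIZ and vehicle. Hoxb4, Hoxb8 and Hoxb7 were still called lower in both differentiated groups than in undifferentiated cells. They were 1.18-, 1.43- and 1.25-fold lower with vehicle, and 1.27-, 1.31- and 1.54-fold lower with MIZ. Hoxb4 stood at 11.5, 13.0 and 12.6 CPM undifferentiated, at 10.01, 10.6 and 10.7 CPM with vehicle and at 10.2, 9.15 and 9.78 CPM with MIZ. Its highest group mean was 1.27 times its lowest, the smallest ratio of the 31 genes. Hoxb8, named after its values were seen, stood at 9.95, 9.89 and 9.27 CPM, at 6.79, 6.44 and 7.07 CPM and at 6.98, 6.87 and 8.40 CPM. For MIZ against vehicle the 95% interval of the log2 fold change was -0.28 to 0.07 for Hoxb4 and -0.09 to 0.35 for Hoxb8, well apart from that of the neighbouring Hoxb9, 2.15 to 2.57. Hoxb7 stood at 6.18, 5.48 and 5.53 CPM, at 4.01, 4.57 and 5.07 CPM and at 3.58, 3.69 and 3.93 CPM. It was 1.23-fold lower with MIZ than with vehicle (adjusted p = 0.0381), a call at the threshold that was lost in 11 of 17 alternative settings, among them leaving out MIZ replicate 1 or 2, undifferentiated replicate 2 or 3 or vehicle replicate 2 or 3 (adjusted p = 0.0517 to 0.123).

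The Hoxc genes showed the same kind of contrast within 1 cluster. Hoxc4, Hoxc5 and Hoxc6, which are known for the neck and forelimb level, were low in vehicle-treated cells. Hoxc4 stood at 14.1, 15.8 and 15.2 CPM undifferentiated, at 1.88, 2.83 and 3.29 CPM with vehicle and at 14.8, 14.3 and 12.5 CPM with MIZ. Undifferentiated and MIZ-treated libraries overlapped here, with a log2 fold change of -0.12 (95% interval -0.40 to 0.17), while the rise of MIZ over vehicle was 5.07-fold (log2 2.34, SE 0.152, adjusted p = 1.15e-07). Hoxc5 stood at 19.0, 21.3 and 21.7 CPM, at 2.96, 3.95 and 3.78 CPM and at 16.04, 17.1 and 14.9 CPM, and rose 4.43-fold with MIZ. Hoxc6 stood at 53.4, 51.8 and 56.7 CPM, at 13.99, 16.8 and 18.1 CPM and at 41.0, 40.9 and 40.2 CPM, and rose 2.48-fold. For all 3 genes vehicle replicate 1 was the lowest library.

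Towards the posterior end of Hoxc the differences shrank and then turned. Hoxc8, a gene of the lower thorax and of motor neurons of the forelimb, stood at 35.4, 35.0 and 36.2 CPM, at 19.2, 21.2 and 21.9 CPM and at 28.3, 27.4 and 29.9 CPM, which is 1.37-fold higher with MIZ than with vehicle. Hoxc9, which sets the thoracic level of the spinal cord, stood at 24.996, 22.9 and 24.1 CPM, at 8.48, 8.99 and 10.5 CPM and at 13.59, 11.9 and 11.6 CPM, 1.32-fold higher. Hoxc10, a lumbar gene also known from subcutaneous fat, went the other way. It stood at 34.1, 32.1 and 33.1 CPM undifferentiated, at 19.7, 23.5 and 24.5 CPM with vehicle and at 15.02, 11.1 and 12.8 CPM with MIZ. It was 1.74-fold lower with MIZ than with vehicle (log2 -0.80, SE 0.109, adjusted p = 5.67e-05), the only Hoxc gene that passed the test in this direction.

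Beyond Hoxc10 the direction turned again, at low levels. Hoxc11 stood at 2.45, 3.21 and 2.25 CPM, at 0.675, 0.987 and 0.979 CPM and at 2.38, 1.68 and 2.16 CPM, 2.30-fold higher with MIZ than with vehicle (adjusted p = 0.000551). Hoxc13 stood at 2.09, 2.16 and 2.39 CPM, at 1.09, 1.09 and 1.27 CPM and at 4.58, 4.64 and 4.61 CPM. With MIZ it lay above both other groups, 3.98-fold over vehicle (log2 1.99, SE 0.129) and 2.08-fold over undifferentiated cells (log2 1.05, SE 0.116), and no other Hox gene was called more than 2-fold above undifferentiated cells there. Hoxc12, between them, had at most 14 counts in any library and was not called for MIZ against vehicle (95% interval -1.93 to 1.29).

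In Hoxa, 3 genes peaked in vehicle-treated cells. Hoxa4, a gene of the neck vertebrae, stood at 1.64, 1.71 and 1.55 CPM undifferentiated, at 6.04, 6.54 and 6.87 CPM with vehicle and at 1.25, 1.22 and 1.80 CPM with MIZ. The vehicle-treated libraries stood alone, and the other groups overlapped (log2 fold change -0.21, 95% interval -0.58 to 0.16). Its rise in vehicle was 3.99-fold (adjusted p = 2.28e-07) and its difference with MIZ 4.60-fold downwards (log2 -2.20, SE 0.153, adjusted p = 2.09e-07). Hoxa7, a thoracic gene, stood at 7.41, 7.17 and 6.88 CPM, at 8.55, 10.5 and 9.70 CPM and at 4.85, 4.64 and 4.46 CPM. Hoxa9, best known from blood progenitors, stood at 14.95, 13.8 and 15.3 CPM, at 16.4, 19.2 and 20.5 CPM and at 10.1, 9.80 and 9.10 CPM. Both peaked with vehicle and were lowest with MIZ, by a log2 fold change of -1.05 (SE 0.0971) and -0.96 (SE 0.0907) against vehicle. The smaller rise of Hoxa9 in vehicle-treated over undifferentiated cells, 1.28-fold, lost its call when libraries were scaled by their totals alone (adjusted p = 0.0940).

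The other Hoxa genes were lower in one or both differentiated groups or moved little. Hoxa5, known from lung and adipose tissue, stood at 5.04, 4.83 and 5.53 CPM, at 4.24, 4.72 and 5.004 CPM and at 3.49, 3.31 and 2.66 CPM, 1.48-fold lower with MIZ than with vehicle (adjusted p = 0.00230). Hoxa10, the most abundant Hoxa gene in undifferentiated and MIZ-treated cells (Hoxa9 was higher with vehicle), stood at 22.3, 20.9 and 21.4 CPM, at 12.9, 12.0 and 12.5 CPM and at 10.6, 11.9 and 10.996 CPM. It fell in vehicle (log2 -0.79, SE 0.0661) and differed by -0.16 between MIZ and vehicle (adjusted p = 0.0575), a value that passed the threshold in 4 of 17 alternative settings, among them without MIZ replicate 2 (adjusted p = 0.0314) and without vehicle replicate 2 (adjusted p = 0.0432). Hoxa6 stood at 3.45, 3.24 and 3.38 CPM, at 1.91, 2.04 and 2.76 CPM and at 1.97, 1.79 and 2.04 CPM. Hoxa2, Hoxa3 and Hoxa11 had group means between 0.292 and 8.61 CPM and were not called for MIZ against vehicle. In vehicle-treated against undifferentiated cells they were called lower, by 2.40-, 1.90- and 3.79-fold. With MIZ, Hoxa3 and Hoxa11 were 1.74- and 3.30-fold lower than in undifferentiated cells, and Hoxa2 was not called there.

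In Hoxd, 4 of 4 tested genes were called lower in vehicle-treated than in undifferentiated cells, beside 41.5% of all genes. Also, 4 of 4 were lower with MIZ than with vehicle, beside 35.1%. All 9 Hoxc genes were lower in the first of these comparisons too. Hoxd3, which patterns the first vertebrae, had the widest range of all Hox genes. It stood at 5.95, 6.07 and 6.45 CPM undifferentiated, at 1.31, 0.536 and 0.712 CPM with vehicle and at 0.249, 0.271 and 0.414 CPM with MIZ. Its counts were 35, 25 and 32 with vehicle and 11, 10 and 14 with MIZ. Vehicle replicate 1 stood above the other vehicle-treated libraries, and the groups still did not overlap. The log2 fold change was -2.94 (SE 0.240) for vehicle against undifferentiated cells, -1.38 (SE 0.354, adjusted p = 0.00485) for MIZ against vehicle and -4.32 (SE 0.279, adjusted p = 1.94e-07) for MIZ against undifferentiated cells. Hoxd4, its neighbour, stood at 10.8, 9.87 and 10.9 CPM, at 4.80, 4.79 and 4.54 CPM and at 2.58, 2.55 and 2.69 CPM. It fell by 1.16 on the log2 scale (SE 0.0849) in vehicle and stood lower by a log2 fold change of -0.85 (SE 0.0950) with MIZ against vehicle. Hoxd8, the most abundant Hoxd gene, stood at 27.4, 25.1 and 23.0 CPM, at 16.4, 17.7 and 15.3 CPM and at 11.2, 10.3 and 10.8 CPM. Its log2 fold change was -0.61 in each of these comparisons. Hoxd9 stood at 4.20, 4.29 and 4.49 CPM, at 1.84, 2.60 and 2.09 CPM and at 1.68, 1.52 and 1.39 CPM. Its difference between MIZ and vehicle, 1.43-fold (adjusted p = 0.0122), missed the threshold without vehicle replicate 2 (adjusted p = 0.0542) and with library totals alone (adjusted p = 0.05002).

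**Figure D4:**
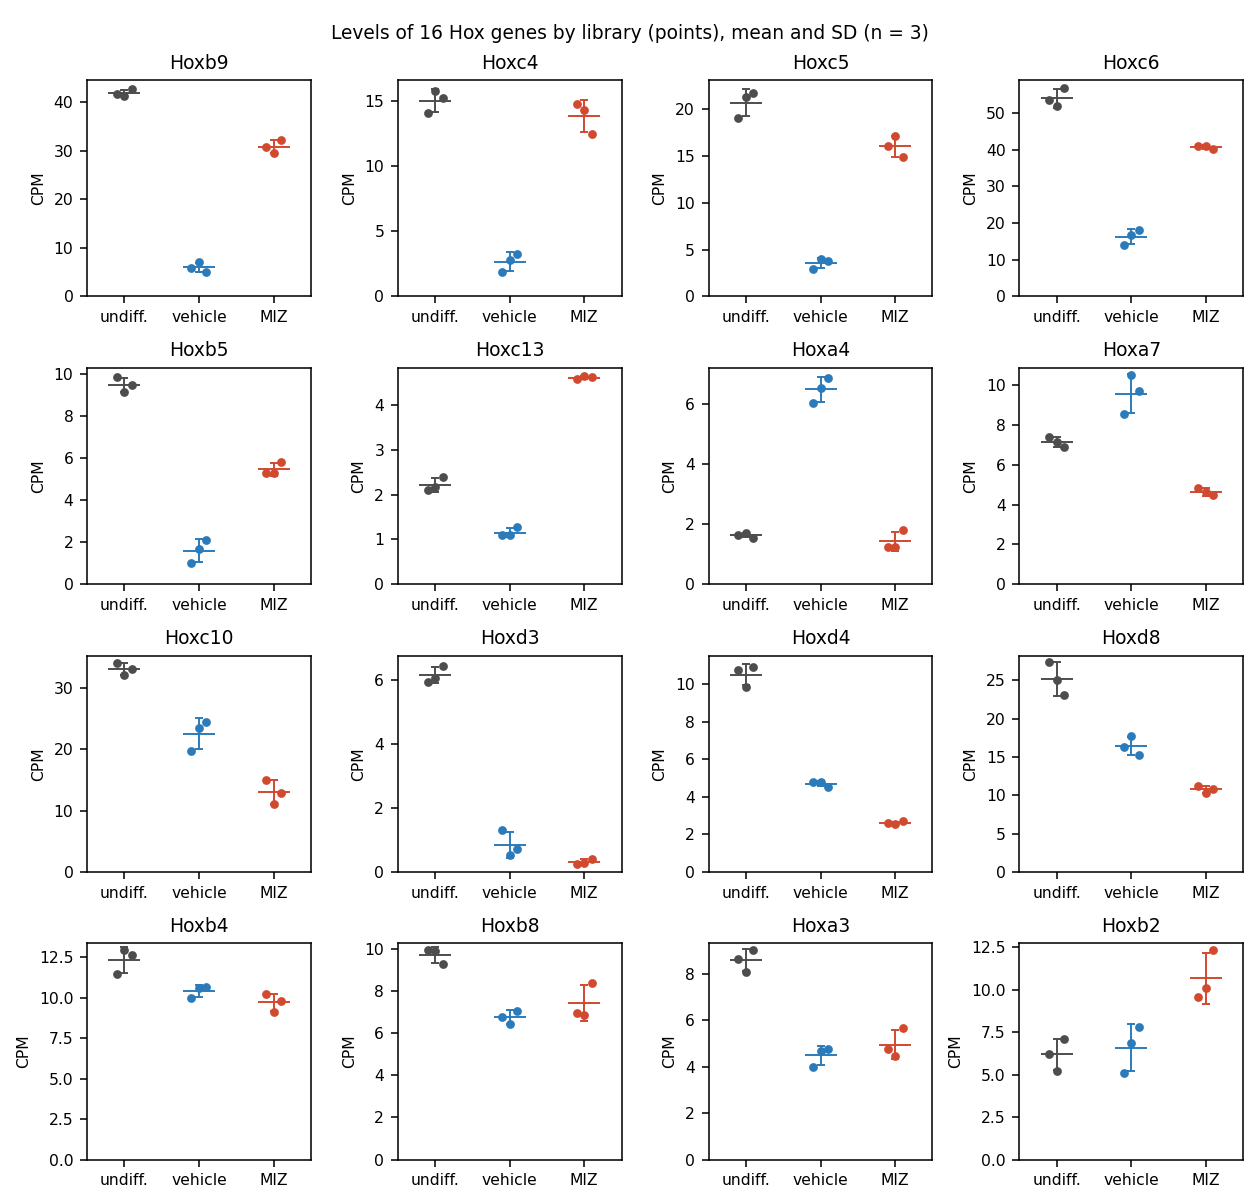
CPM of 16 Hox genes by library (points) with mean and SD (n = 3) in undifferentiated, vehicle-treated and MIZ-treated cells, each axis from 0. Hoxb9, Hoxb5 and Hoxc4 to Hoxc6 are lowest with vehicle, Hoxa4 and Hoxa7 are highest with vehicle, Hoxc10 and Hoxd genes are lowest with MIZ, and Hoxb4 and Hoxb8 vary least of those shown.

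Stability was read from intervals, since a test that does not pass does not show that a level stayed. The 95% interval of the fold change lay wholly within 2-fold for 13 of 31 Hox genes for vehicle against undifferentiated cells (43.9% of all genes), for 13 for MIZ against vehicle (48.2%) and for 16 for MIZ against undifferentiated cells (56.7%). Of the 31 genes, 11 (35.5%) had a highest group mean under 2 times the lowest, beside 46.9% of all genes with counts in each group. Among these were Hoxa3, Hoxa5, Hoxa6, Hoxa9, Hoxa10, Hoxb2, Hoxb4, Hoxb7, Hoxb8 and Hoxc8. At the other end stood Hoxd3 with a ratio of 19.8, Hoxb9 with 6.99, Hoxb5 with 5.93 and Hoxc5 with 5.80. A test for any difference among the 3 groups called 31 of 31 Hox genes, beside 88.3% of all genes. Undifferentiated cells held the highest mean of 25 Hox genes, vehicle-treated cells that of 3 and MIZ-treated cells that of 3. The lowest mean was in vehicle-treated cells for 15, in MIZ-treated cells for 14 and in undifferentiated cells for 2. No share over all genes was worked out for these counts, so they are descriptions only.

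Upstream sequence is shown for the member of each cluster with the largest difference between MIZ and vehicle whose promoter entry holds no annotated exon. This gave Hoxa9 and Hoxd4, both lower with MIZ, and Hoxb8, which was not called between MIZ and vehicle, and no Hoxc gene. RefSeq (GRCm38.p6) entries were at hand for 24 promoters of 22 Hox genes. The 250 bases before the start are given from 5′ to 3′ on the gene's strand, for Hoxa9 at chr6:52227371-52227620 (minus strand), for Hoxb8 at chr11:96281655-96281904 (plus strand) and for Hoxd4 at chr2:74721728-74721977 (plus strand). Capitals mark the letters searched on either strand, which were GGGCGG for the GC box, CCAAT for the box of that name, TATAAA for the TATA box and TGATTNAT for a site of Hox and Pbx pairs.
Hoxa9: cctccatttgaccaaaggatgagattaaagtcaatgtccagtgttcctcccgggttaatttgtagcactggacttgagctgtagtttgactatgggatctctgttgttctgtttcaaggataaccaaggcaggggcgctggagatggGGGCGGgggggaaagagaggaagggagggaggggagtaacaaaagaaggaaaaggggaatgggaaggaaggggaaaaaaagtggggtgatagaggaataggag
Hoxb8: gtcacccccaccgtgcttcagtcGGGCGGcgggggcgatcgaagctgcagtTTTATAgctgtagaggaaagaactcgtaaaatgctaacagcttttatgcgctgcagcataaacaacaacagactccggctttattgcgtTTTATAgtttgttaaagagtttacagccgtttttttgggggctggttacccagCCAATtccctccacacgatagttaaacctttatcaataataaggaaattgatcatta
Hoxd4: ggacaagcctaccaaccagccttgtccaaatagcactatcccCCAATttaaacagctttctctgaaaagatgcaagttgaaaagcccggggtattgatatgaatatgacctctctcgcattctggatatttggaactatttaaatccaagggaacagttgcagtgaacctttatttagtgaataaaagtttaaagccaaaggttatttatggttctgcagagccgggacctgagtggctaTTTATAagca
The Hoxb8 window held 2 TATA boxes, 1 CCAAT box and 1 GC box, that of Hoxd4 held 1 TATA box and 1 CCAAT box, and that of Hoxa9 held 1 GC box. Across the Hox windows the CCAAT box was found in 58.3% (33.8% of all 32851 promoters), the GC box in 41.7% (32.7%), the TATA box in 16.7% (12.4%) and the Hox and Pbx site in 8.33% (2.82%). The median number of CG pairs was 12.5 in Hox windows and 6 in all. A match is a description of letters and not a site in use.

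Some Hox exons overlap other genes, and the strand setting of the counting was not given in the sources used here. In the GENCODE M21 annotation, 52.9% of the exon bases of Hoxb3 and 27.3% of those of Hoxb2 lie opposite Hoxb3os, an antisense RNA, so without strand their reads could not be told apart. Hoxb3os was counted at 0.474 ± 0.0229 CPM undifferentiated, at 3.84 ± 1.02 CPM with vehicle and at 1.61 ± 0.140 CPM with MIZ, opposite in course to Hoxb3. Hoxa4 shares 255 of its 1594 exon bases with Gm29430, Hoxa7 20.4% with Hoxaas3, and Hoxa11 35.0% with Hoxa11os, all antisense. Hoxa3 shares 20.6% with antisense genes. Hoxd4 shares 13.2% with Hoxd3, on the same strand, or with Hoxd3os1, on the opposite strand. Hoxc5 and Hoxc10 share 166 bases on the same strand, 5.4% and 8.7% of their exon bases. A strand setting does not separate genes on the same strand. Hoxb9, Hoxc4, Hoxc6, Hoxc8, Hoxc13, Hoxa9, Hoxa10 and Hoxd8 share none.

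Of 22 noncoding genes of the clusters sought, 12 were in the table and 9 were tested. Gm53, which lies on the posterior side of Hoxb9 on chromosome 11, had 32.2, 32.5 and 34.3 CPM undifferentiated, 2.10, 3.00 and 4.11 CPM with vehicle and 25.7, 25.3 and 25.8 CPM with MIZ. It was lowest in vehicle-treated cells, 8.07-fold under MIZ (log2 3.01, SE 0.150, adjusted p = 1.31e-08). It was the only one of the 9 that rose with MIZ, and 4 fell (35.9% and 35.1% of all genes). These were Hoxb3os, Hoxd3os1 (1.41 ± 0.208, 2.17 ± 0.270 and 1.14 ± 0.162 CPM in undifferentiated, vehicle-treated and MIZ-treated cells), Hotairm1 of the Hoxa cluster (2.32 ± 0.126, 4.08 ± 0.392 and 3.18 ± 0.313 CPM) and Haglr, under 1 CPM. Hoxaas2 did not pass the test (log2 fold change 0.14). Hotair, an antisense RNA of the Hoxc cluster, had at most a mean of 0.308 CPM.

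The genes that flank the clusters were checked because they share the neighbourhood but not the Hox code. Of 16 tested, 6 were higher and 9 lower with MIZ than with vehicle (median -0.57), beside 35.9% and 35.1% of all genes. Beside Hoxa, the log2 fold change was -2.14 for Jazf1, -2.08 for Hibadh, a mitochondrial enzyme of valine breakdown, and -1.48 for Snx10, and 0.07 for Skap2, which did not pass. Beside Hoxb it was 0.85 for Snx11, 0.19 for Cbx1 and -0.68 for Atp5g1, a subunit of ATP synthase. Beside Hoxc it was 1.09 for Hnrnpa1, 0.31 for Cbx5, -0.48 for Calcoco1 and -0.67 for Smug1, and beside Hoxd 0.47 for Lnpk, -0.66 for Atf2 and -0.97 for Mtx2.

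Hox proteins bind DNA with cofactors of the Pbx and Meis families. For this and the lists that follow, the background over all genes was 35.9% higher and 35.1% lower with MIZ than with vehicle (median log2 fold change 0.02) and 36.2% higher and 41.5% lower in vehicle than in undifferentiated cells (median -0.08). Besides Pbx and Meis genes, the cofactor list held Pknox1, Pknox2, Tgif1, Tgif2, Pbxip1 and Gmnn. Pbxip1 and Gmnn do not encode Pbx or Meis proteins, so the list is not one of DNA-binding partners only. Of its 13 genes tested, 9 were higher and 2 lower with MIZ than with vehicle (median 0.80). In vehicle than in undifferentiated cells 1 was higher and 8 lower (median -1.09). Among the rises with MIZ were those of Pbxip1, a Pbx-binding protein, with 182, 66.3 and 272 CPM in undifferentiated, vehicle-treated and MIZ-treated cells (log2 2.03, SE 0.104), and of Pknox2 with 23.1, 10.99 and 29.8 CPM (1.46, SE 0.113). The falls were those of Gmnn, which encodes geminin, with 7.05, 7.04 and 1.93 CPM (-1.89, SE 0.175) and of Pbx2 (-0.41, SE 0.0941).

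Of 36 other positional homeobox and T-box genes tested, 22 were higher and 2 lower with MIZ than with vehicle (median 0.84), beside 35.9% and 35.1% of all genes. In vehicle against undifferentiated cells 5 were higher and 25 lower (median -1.10), beside 36.2% and 41.5% of all genes. Among those with at least 1 CPM in a group, the largest rises were those of Gbx2, with 2.47, 0.0472 and 0.512 CPM (log2 3.54, SE 0.700), of Msx1, with 0.365, 0.269 and 1.73 CPM (2.66, SE 0.280), and of En1, the ventral limb and somite gene, with 23.1, 10.9 and 50.2 CPM (2.21, SE 0.0642). The vehicle mean of Gbx2 lay under the limit at a count of 0 of those libraries (0.0644 to 0.113 CPM). The size of its rise therefore rests on few counts. Irx3 fell, with 3.75, 10.3 and 2.59 CPM (-1.997, SE 0.114).

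Polycomb complexes hold Hox genes silent, and trithorax-type regulators keep them active. Of 32 Polycomb genes, 13 were higher and 14 lower with MIZ than with vehicle (median -0.04), and 10 were higher and 16 lower in vehicle than in undifferentiated cells (median -0.14), beside 35.9% and 35.1% of all genes for the first comparison and 36.2% and 41.5% for the second. Among the falls were those of Jarid2 (24.6, 110 and 24.3 CPM, log2 -2.18) and Pcgf5 (9.36, 45.0 and 16.9 CPM, -1.41), and the largest rises those of Cbx6 (265, 39.6 and 90.7 CPM, 1.19), Phc1 (1.18) and Phc2 (0.85). Ezh2, which writes the silencing mark and was named after its values were seen, had 19.8, 14.6 and 11.4 CPM (-0.36, adjusted p = 0.00459). Of 17 activating regulators, 7 were higher and 8 lower with MIZ than with vehicle (median -0.07), and 8 were higher and 6 lower in vehicle than in undifferentiated cells (median 0.07), beside the same background. The largest rises were those of Psip1 (0.95), Kmt2a, the trithorax homologue (183, 123 and 232 CPM, 0.91), and Mllt3 (0.85), and the largest falls those of Dot1l (41.6, 126 and 57.9 CPM, -1.12), Kdm6a (-0.58) and Dpy30 (-0.56).

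Retinoic acid induces anterior Hox genes. Of 16 genes of its pathway tested, 5 were higher and 6 lower with MIZ than with vehicle (median 0.12), and 5 were higher and 8 lower in vehicle than in undifferentiated cells (median -0.19), beside a background of 35.9% and 35.1%, and of 36.2% and 41.5%, of all genes. Crabp1 (14.9, 0.340 and 2.79 CPM, log2 2.94) and the receptor gene Rarg (61.2, 15.6 and 31.9 CPM, 1.02) were among the rises, and the receptor genes Rxrg (0.0321, 9.54 and 0.942 CPM, -3.33) and Rarb (0.422, 4.34 and 0.675 CPM, -2.67) and the retinal reductase gene Dhrs3 (126, 131 and 47.9 CPM, -1.45) fell most.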

How the data were processed

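RNA was sequenced from 9 libraries, with 3 each of undifferentiated, vehicle-treated and MIZ-treated cells, grouped by their labels. The authors depleted ribosomal RNA, and their methods also name poly-A selection. Paired reads were trimmed with Trim Galore 0.6.7 and aligned to GRCm38 with STAR. The methods name the gene counting of STAR and the labels name HTSeq. The annotation release and strand setting are not given in the sources used here. The authors deposited raw counts per gene, with no normalization. Symbols were given to 32158 of 32285 identifiers by GENCODE M21.

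A gene was tested if 3 or more libraries held 5 or more counts of it (17173 genes). edgeR 4.0.16 (R 4.3.3) fitted its quasi-likelihood model with TMM scaling to all 9 libraries together, with a biological coefficient of variation of 0.0806. The 3 pairs of groups were compared with Benjamini-Hochberg adjustment over all genes tested. CPM uses TMM library sizes, and levels per kilobase use the union of GENCODE exons. Intervals of fold changes are 95% intervals of the same fit. Cluster sums and shares were compared by two-sided exact permutation. The limit at a count of 0 is 3 counts and covers counting error only.

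Alternatives were DESeq2 1.42.0, other scalings and filters, fits to 6 libraries, a replicate block and leaving out each library. The Hox genes and the lists were chosen with earlier results of these data known. Values in every library are given for Hox genes with at least 1 CPM in a group that were called between MIZ and vehicle or were among the 3 highest per kilobase of their cluster. Of each other list up to 3 called genes per direction with the largest change and at least 1 CPM in a group are named, with all noncoding and flanking genes at that level. Some genes that these rules would name are not reported here.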

Additional observations from a re-analysis of the deposited data

How the results depend on the processing

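The numbers of Hox genes called kept within 1.5 times of those reported in all 17 alternatives, with 12 to 13 higher and 8 to 11 lower for MIZ against vehicle, 2 to 4 and 23 to 26 for vehicle against undifferentiated cells and 2 to 3 and 24 to 25 for MIZ against undifferentiated cells. No fold change of a single Hox gene reversed its sign with a call. Calls were lost for Hoxb7 (adjusted p up to 0.232) and Hoxd9 for MIZ against vehicle and for Hoxa9, Hoxb4 (fit to 6 libraries), Hoxb7 (without undifferentiated replicate 1 or vehicle replicate 1 or 2) and Hoxc12 (without undifferentiated or vehicle replicate 2) for vehicle against undifferentiated cells. Calls were gained for Hoxa10 and Hoxb8, for Hoxa5, and for Hoxa2 (without MIZ replicate 1, adjusted p = 0.0152) and Hoxa4 (without MIZ replicate 3, adjusted p = 0.0372), in the same order of comparisons. The cause was not tested. With a replicate block, 12 Hox genes were higher and 9 lower for MIZ against vehicle, 3 and 25 for vehicle against undifferentiated cells and 3 and 24 for MIZ against undifferentiated cells. To look for pairs, the log2 CPM of each library was taken as its deviation from the mean of its group, over all genes tested. These deviations correlated by -0.0447 to 0.0630 between same-numbered libraries. So the numbers were not taken to pair the samples, and not every library's deviations correlated best with those of its own number. Scaling by library totals alone shifted log2 fold changes by 0.14 for MIZ against vehicle, by -0.18 for vehicle against undifferentiated cells and by -0.04 for MIZ against undifferentiated cells. It gave medians over the Hox genes of 0.27, -1.12 and -0.66, and upper quartile scaling gave 0.19 and -1.01 for the first pair, against 0.13, -0.94 and -0.62. Leaving out a library gave medians of 0.023 (without MIZ replicate 3) to 0.18 for MIZ against vehicle, -0.99 to -0.88 for vehicle against undifferentiated cells and -0.65 to -0.57 for MIZ against undifferentiated cells. Library totals alone gave log2 ratios of summed CPM of -0.47 for Hoxa and -0.53 for Hoxd (MIZ against vehicle) and of -0.28, -1.56, -1.46 and -1.11 for Hoxa, Hoxb, Hoxc and Hoxd (vehicle against undifferentiated). Without Hoxa10 the Hoxa ratio was -0.74 for MIZ against vehicle, 0.14 for vehicle against undifferentiated cells, where it reversed, and -0.60 for MIZ against undifferentiated cells. Without Hoxb9 the Hoxb ratio was 0.62 for MIZ against vehicle and -0.96 for vehicle against undifferentiated cells. Without Hoxc6 the Hoxc ratio was 0.57 for MIZ against vehicle and -0.56 for MIZ against undifferentiated cells, and without Hoxd8 the Hoxd ratio was -0.80, -1.43 and -2.23 in the order of comparisons above. Shares of counts per kilobase gave differences of -13.6, 12.8 and -0.820 percentage points for Hoxa, 8.85 (MIZ against vehicle) and 1.502 (MIZ against undifferentiated, exact permutation p = 0.2) for Hoxc and -4.79 for Hoxd (MIZ against undifferentiated). Depth limits Hoxc12 and the 8 untested genes, whose levels rest on a few counts. Low counts also limit Hoxd3 with MIZ (10 to 14 counts per library). The same holds for Hoxa11 (7 to 16) and Hoxa2 (9 to 37) in the vehicle-treated and MIZ-treated libraries.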
